A study of Bos taurus with 18 samples.

Results

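The genes described here are the 100 that stood highest, in every replicate, after 6 h of recovery from heat in differentiated MAC-T cells, an immortalised bovine mammary epithelial line. They were taken from 30642 genes in a table of read counts for 18 poly-A RNA libraries. Undifferentiated cells spent 4 days in a basal medium with serum, insulin and hydrocortisone. They stayed unheated at 37 °C (NHSUD), or were held at 42 °C for 1 h and collected (HSUD). Differentiated cells spent 4 days in lactogenic medium, which is the basal medium with 5% more serum, 5 µg/ml ovine prolactin and 10 µg/ml dexamethasone. They stayed unheated at 37 °C (NHSD), were held at 42 °C for 1 h and collected (HSD), or were heated and then returned to 37 °C for 2 h (D2R) or 6 h (D6R). Each group had 3 libraries, numbered by the repeat of the whole experiment, and each library pooled the RNA of 2 technical replicates. Per the labels, the unheated groups shared plate I, the heated groups plate II and the recovery groups plate III, so plate and heat or recovery cannot be told apart. The labels give no unheated control kept for the hours of recovery, so time in culture and recovery cannot be told apart either. All groups are 1 cell line, and every group received insulin and a glucocorticoid.

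The choice used log2 CPM (read counts per M counts of the library, scaled by TMM factors, prior count of 2), compared within a replicate number. A gene had to average at least 5 CPM over the 18 libraries. Names of heat shock, DNAJ and PDIA genes and of unnamed loci were left out. The mean of HSD minus NHSD had to lie within 0.3 of 0, and 8557 genes passed these filters. Of those, the 100 with the highest minimum of D6R minus NHSD over the 3 replicates were kept. All 100 passed the edgeR filter on low counts, which 15158 genes passed in all. The D6R, NHSD and HSD values of these genes therefore chose them, and those values are given below as a description.

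Heat shock first raises chaperones that hold and refold damaged proteins, and protein synthesis and cell growth resume after the return to normal temperature. Mammary epithelial cells make and secrete milk proteins through the rough endoplasmic reticulum (ER) and the Golgi. Among the 100 were genes for ubiquitin ligase adaptors, restraints and relays of growth and nutrient signals, rough ER and Golgi scaffolds, chromatin proteins and zinc finger proteins. All 95 whose symbols were found in RefSeq are protein coding, and FBXO32_1, FAM214A, ZNF606, PTPN13_1 and TMEM206 were not matched.

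The differences that chose the genes were small. The mean of D6R minus NHSD ran from 0.37 to 1.23 log2 units with a median of 0.54, which is a fold of 1.30 to 2.35 with a median of 1.45. Only 4 genes reached 2-fold, namely FBXO32_1, GOLGB1, RRBP1 and AKAP9, and 59 were under 1.5-fold. Expression was low, with a median over the libraries of 18.6 CPM against 42.0 CPM for the genes that passed the filters, and 24 of the 100 averaged under 10 CPM. The ranking had no step at its end. The minimum difference was 0.32 for GRK5, GFPT2 and TMEM144, the last 3 kept, and 0.32, 0.32 and 0.31 for FLRT3, TRIM23 and CBLB, the first 3 left out. In 51 of the 100 genes all D6R libraries were above all NHSD libraries, against 4.84% of the genes that passed the filters, a count fixed in part by the choice. The other 49 were higher within each replicate number while the libraries of the 2 groups overlapped.

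Levels differed between replicate numbers. Replicate 3 was the highest NHSD library for 70 genes and the highest D6R library for 74, and 28 genes were highest in replicate 3 in all 6 groups. Without a replicate block, edgeR's quasi-likelihood test with Benjamini-Hochberg adjustment called 0 of the 100 in D6R against NHSD, with 61 at an unadjusted p under 0.05, where 0.0132% of all genes tested were called higher and 0% lower. Of the 8557 genes that passed the filters, 522 had an unadjusted p under 0.05. With the replicate number as a block it called 37 of the 100 higher, where 0.673% of all genes were called higher and 0.778% lower. DESeq2 without a block called 6 higher (FAM133B, WDR5B, NTN4, WDCP, ARRDC3 and EPC2), where 0.222% of all genes with an adjusted p were called higher and 0.0872% lower. Because this contrast chose the genes, these counts describe how the spread between replicates compares with the differences and test nothing.

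The levels at 2 h are described next. The D2R libraries entered the choice only through the floor on mean CPM, but the NHSD libraries chose the genes, so D2R minus NHSD can lie above 0 through the choice itself. The size of that part was not measured, so these 2 h values are a description. Against NHSUD, the unheated libraries used only for the floor, the replicate medians at 2 h were 0.38, -0.02 and 0.00. The mean of D2R minus NHSD was above 0 in 82 of the 100 genes, with a median of 0.19, against a median of 0.00 over the genes that passed the filters. In 48 genes D2R was higher in all 3 replicates, against 1291 of the 8557 genes that passed the filters. A median of 32.8% of the 6 h difference was present at 2 h, 33 genes had at least 50% of it, and 5 had as much or more (RRBP1, MKI67, HOXA5, SUGP2 and PTPN6). All D2R libraries were above all NHSD libraries in 14 genes (2.73% among the genes that passed the filters), a count fixed in part by the choice. At the other end, 18 genes had a 2 h mean at or below 0. Only BMPR1A, a receptor for bone morphogenetic proteins, was lower in D2R than NHSD in all 3 replicates.

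**Figure D1:**
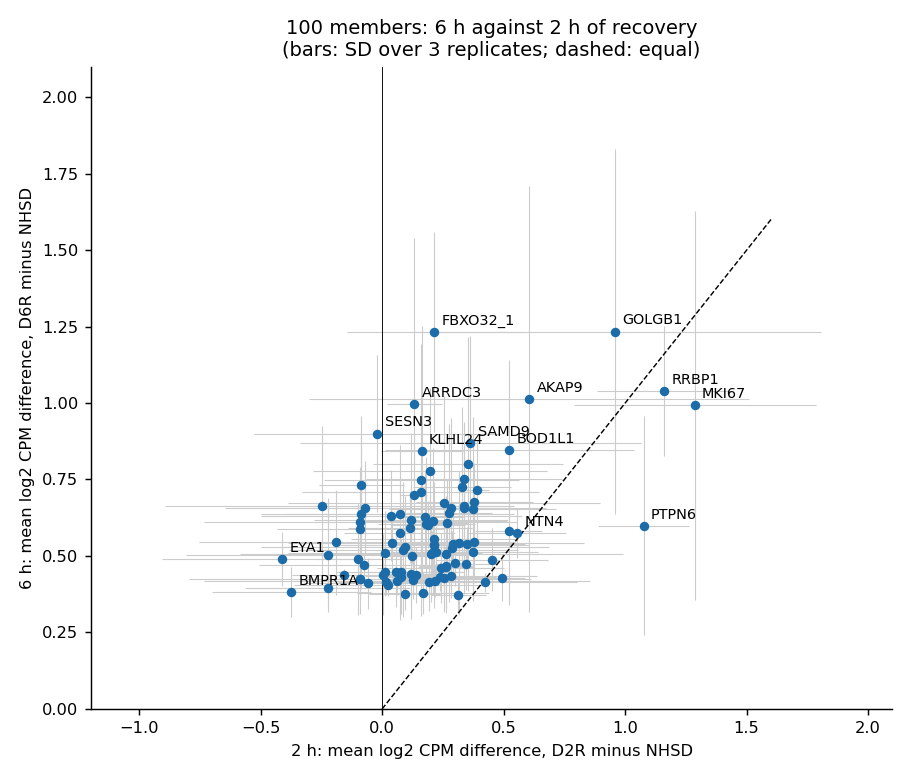
Mean log2 CPM difference from NHSD after 6 h (vertical) against that after 2 h (horizontal) for the 100 genes, with grey bars for the SD over 3 replicates and a dashed line where both are equal. Most points lie above the line and to the right of 0, and RRBP1, MKI67 and PTPN6 lie below the line.

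The 2 h picture differed between the repeats of the experiment. In replicate 1 the median of D2R minus NHSD was 0.39, and 96 of the 100 genes were above 0. In replicates 2 and 3 the medians were 0.11 and 0.08, with 61 and 64 genes above 0. The 6 h medians were 0.45, 0.55 and 0.54 in replicates 1, 2 and 3. Thus at least 50% of the 6 h difference was present at 2 h in 76 genes in replicate 1, 17 in replicate 2 and 29 in replicate 3. Some genes outside the 100 also set replicate 1 apart. HSPA1A, an inducible heat shock gene, had 1012, 3294 and 3902 CPM in D2R and 1716, 467 and 388 CPM in D6R. D6R minus D2R was 0.88, -2.39 and -3.53 for HSPA6 and 0.34, -0.75 and -0.61 for HSPA5, against 0.12, -0.13 and 0.06 for HSP90B1. Whether the D2R and D6R libraries of replicate 1 were exchanged was not tested, and the 2 h values above include them. D6R minus D2R, groups that shared a plate, is also a description, because high D6R values chose the genes. It had medians of 0.10, 0.54 and 0.47, with 69, 91 and 93 genes above 0. In all 3 replicates 60 genes were higher in D6R, against 1471 of the 8557 genes that passed the filters. All D6R libraries were above all D2R libraries in 24 genes (3.76% among the genes that passed the filters), which the choice fixes in part. For D6R against D2R, edgeR called 0 of the 100 with or without the block (27 at an unadjusted p under 0.05 without it, 65 with it), with 0% of all genes called. Of the 8557 genes that passed the filters, 318 had such a p without the block and 1238 with it. DESeq2 called 0 of the 100, with 31 at an unadjusted p under 0.05, and 0% of all genes higher and 0.00446% lower. It gave such a p to 733 genes in all.

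**Figure D2:**
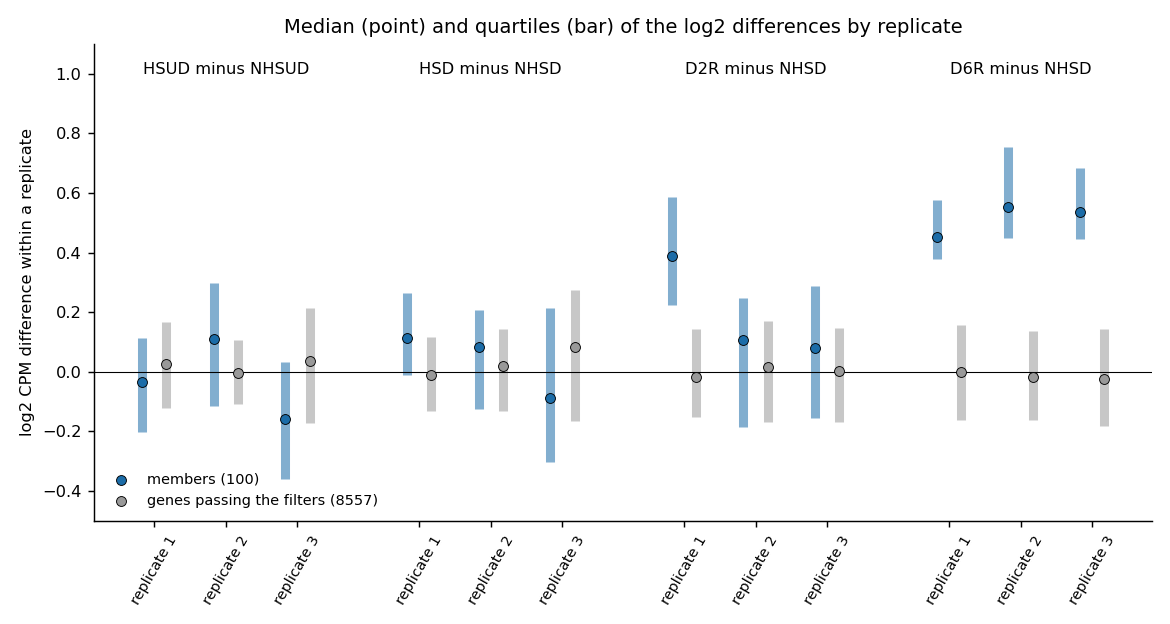
Median (point) and quartiles (bar) of the log2 CPM difference within each replicate for 4 differences, for the 100 genes (blue) and the 8557 genes that passed the filters (grey). At 2 h the blue median is 0.39 in replicate 1 and 0.11 and 0.08 in replicates 2 and 3, while at 6 h it is between 0.45 and 0.55.

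The filter on heat worked on a mean and let through genes whose replicates disagreed. HSD minus NHSD was within 0.3 in all 3 replicates in 37 genes, was beyond 0.5 in at least 1 replicate in 21, and spanned more than 1 log2 unit between replicates in 7. MKI67, the nuclear protein used as a marker of dividing cells, is the clearest case. Its HSD minus NHSD differences were -0.12, 1.49 and -0.61 in replicates 1, 2 and 3. Its level was 19.2, 171 and 26.8 CPM in HSD and 32.5, 248 and 35.7 CPM in HSUD, so that replicate 2 stood far above the others in both heated groups. RRBP1 and BOD1L1 were also highest in replicate 2 in both heated groups, with HSD minus NHSD of 0.28, 0.74 and -0.57 for RRBP1 and 0.06, 0.40 and -0.78 for BOD1L1.

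**Figure D3:**
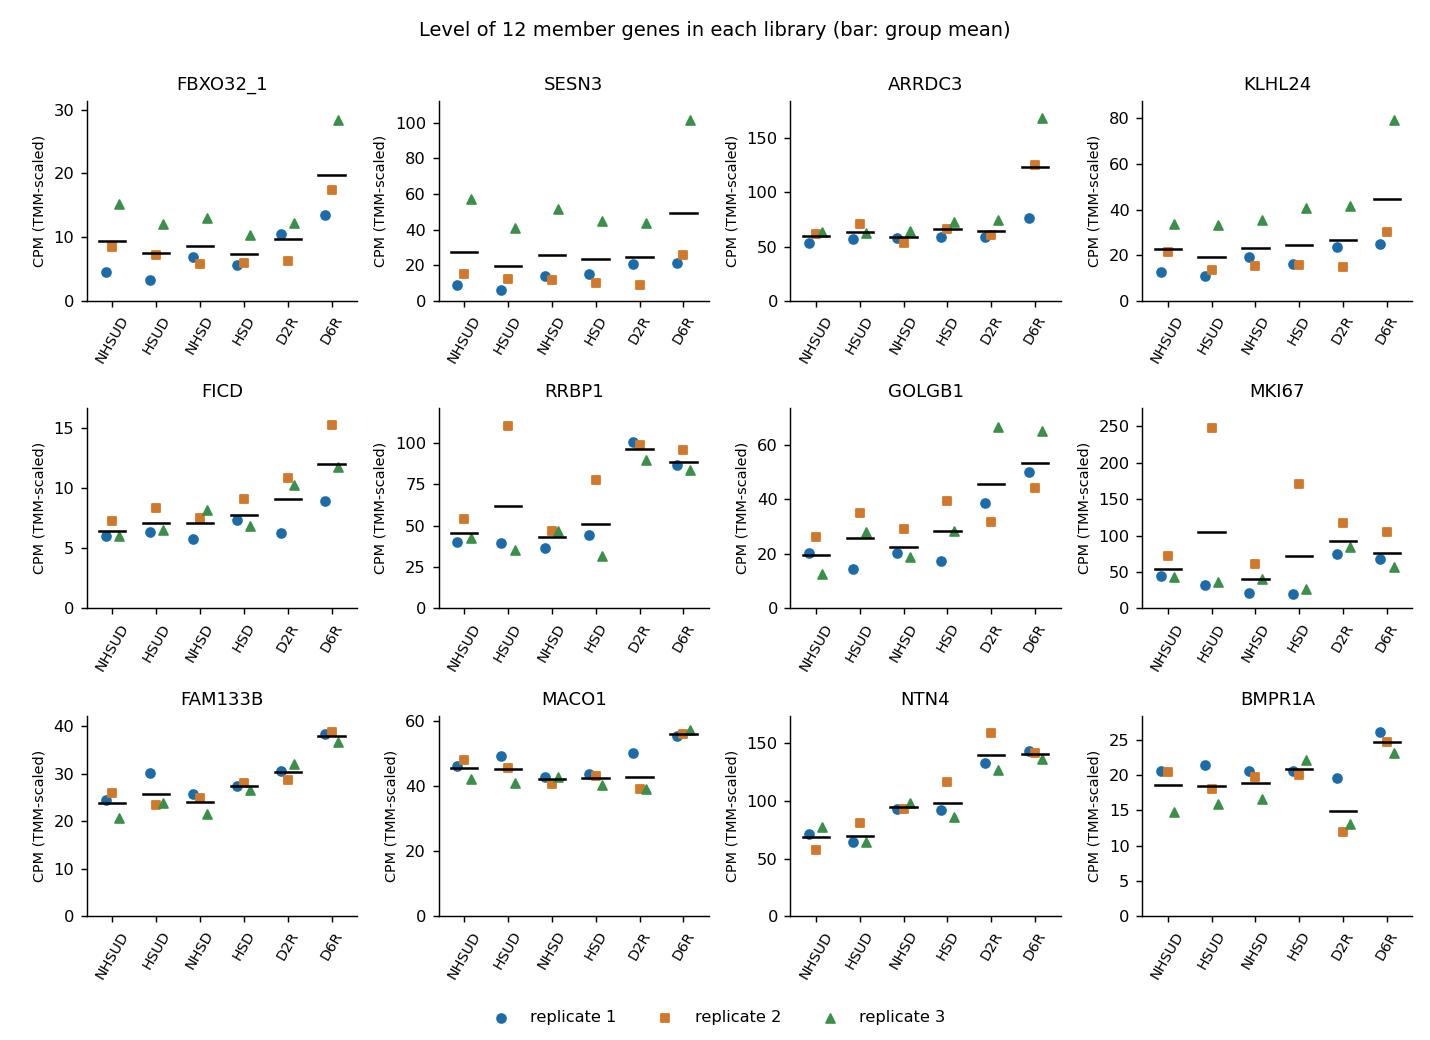
TMM-scaled CPM of 12 of the genes in each library, with replicate 1 as circles, replicate 2 as squares, replicate 3 as triangles and a bar for the group mean. FBXO32_1, SESN3 and KLHL24 are highest in replicate 3 in all 6 groups, RRBP1, GOLGB1 and NTN4 are already high in D2R, and ARRDC3, FAM133B, MACO1 and BMPR1A are highest in D6R.

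The genes were sorted by the known role of their product after the members were seen, so the groups below carry no test. The first group acts in ubiquitin transfer, the tagging of proteins for degradation or relocation. FBXO32_1 headed the whole ranking. It is 1 of the 2 rows of the table under the name of FBXO32, which encodes the F-box subunit of a ubiquitin ligase known from muscle wasting. It had 6.85, 5.71 and 13.0 CPM in replicates 1, 2 and 3 of NHSD, 10.5, 6.25 and 12.2 CPM in D2R and 13.5, 17.4 and 28.4 CPM in D6R, a 6 h difference of 1.23 ± 0.33 log2 units (SD, n = 3). All D6R libraries were above all NHSD libraries, and at 2 h replicate 1 was above its control while replicates 2 and 3 lay near theirs. The row named FBXO32 held only 90 to 124 counts per NHSD library and 72 to 98 per D6R library, against 306 to 751 and 574 to 1535 for FBXO32_1. How reads were divided between the 2 rows is not given in the sources used here, so the separate values are uncertain.

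KLHL24, a substrate adaptor of Cullin-3 ubiquitin ligases that acts on keratin filaments, had 19.1, 15.1 and 35.5 CPM in NHSD and 24.9, 30.0 and 79.4 CPM in D6R. Its difference of 0.84 ± 0.41 was largest in replicates 2 and 3, and the libraries of the groups overlapped. UBE2H, a ubiquitin-conjugating enzyme, was among the 5 most abundant of the 100, with 58.9, 63.5 and 112 CPM in NHSD and 80.9, 95.5 and 157 CPM in D6R. Its difference was even across replicates at 0.51 ± 0.07, although replicate 3 of NHSD lay above replicates 1 and 2 of D6R. SPSB2, a SOCS-box ligase adaptor, and USP54, of the ubiquitin-specific protease family, differed by 0.44 and 0.54. All 6 genes of this group had a 2 h mean above 0, from 0.14 to 0.35.

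The second group restrains or relays growth and nutrient signals. SESN1 and SESN3 encode sestrins, stress-responsive proteins that hold back the growth kinase complex mTORC1 when amino acids are scarce. SESN3 had 14.002, 11.8 and 51.3 CPM in NHSD and 21.4, 25.5 and 101 CPM in D6R, a difference of 0.90 ± 0.26. Replicate 3 was well above the others in every group, so the groups overlapped although each replicate was higher in D6R. SESN1 had 6.35, 5.04 and 14.7 CPM in NHSD and 8.64, 8.16 and 22.8 CPM in D6R (0.59 ± 0.13), with the same high replicate 3. At 2 h the means were -0.02 for SESN3 and -0.09 for SESN1. SESN2, the third sestrin and not 1 of the 100, had differences of -0.40, 1.12 and 0.81 at 6 h in replicates 1, 2 and 3.

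ARRDC3 and ARRDC4 encode alpha-arrestins, adaptors that bring ubiquitin ligases to membrane proteins. ARRDC3 had 58.3, 53.4 and 64.2 CPM in NHSD, 58.8, 66.6 and 72.6 CPM in HSD, 58.4, 60.8 and 74.2 CPM in D2R and 75.9, 125 and 168 CPM in D6R. All 3 D6R libraries were above all 15 other libraries, and the difference of 1.00 ± 0.54 was smallest in replicate 1. ARRDC4 had 6.56, 6.85 and 9.17 CPM in NHSD and 9.46, 13.5 and 14.8 CPM in D6R, a difference of 0.73 ± 0.23 with no overlap. TXNIP, the alpha-arrestin that limits glucose uptake, had a 6 h difference of 0.99 ± 0.46 but was not among the 100, since its HSD minus NHSD mean was 0.59. It was not called at 6 h by edgeR (adjusted p = 0.763) and was called with the replicate block (adjusted p = 0.00537). ARRDC1 and ARRDC2, of the same family, had -0.15 and 0.09.

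ERBB3, a neuregulin receptor of the EGF receptor family, had 19.1, 20.6 and 27.4 CPM in NHSD and 26.2, 27.0 and 35.6 CPM in D6R, an even difference of 0.41 ± 0.04. EGFR and ERBB2 had 0.04 and 0.13 at 6 h. GRB7, an adaptor that binds activated ERBB receptors, differed by 0.66 ± 0.28, SNRK, a kinase related to AMPK, by 0.51 ± 0.08, and YPEL2 by 0.61 ± 0.14. Of the 8 genes in this group, 5 had a 2 h mean above 0, and none exceeded 0.34 there.

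**Figure D4:**
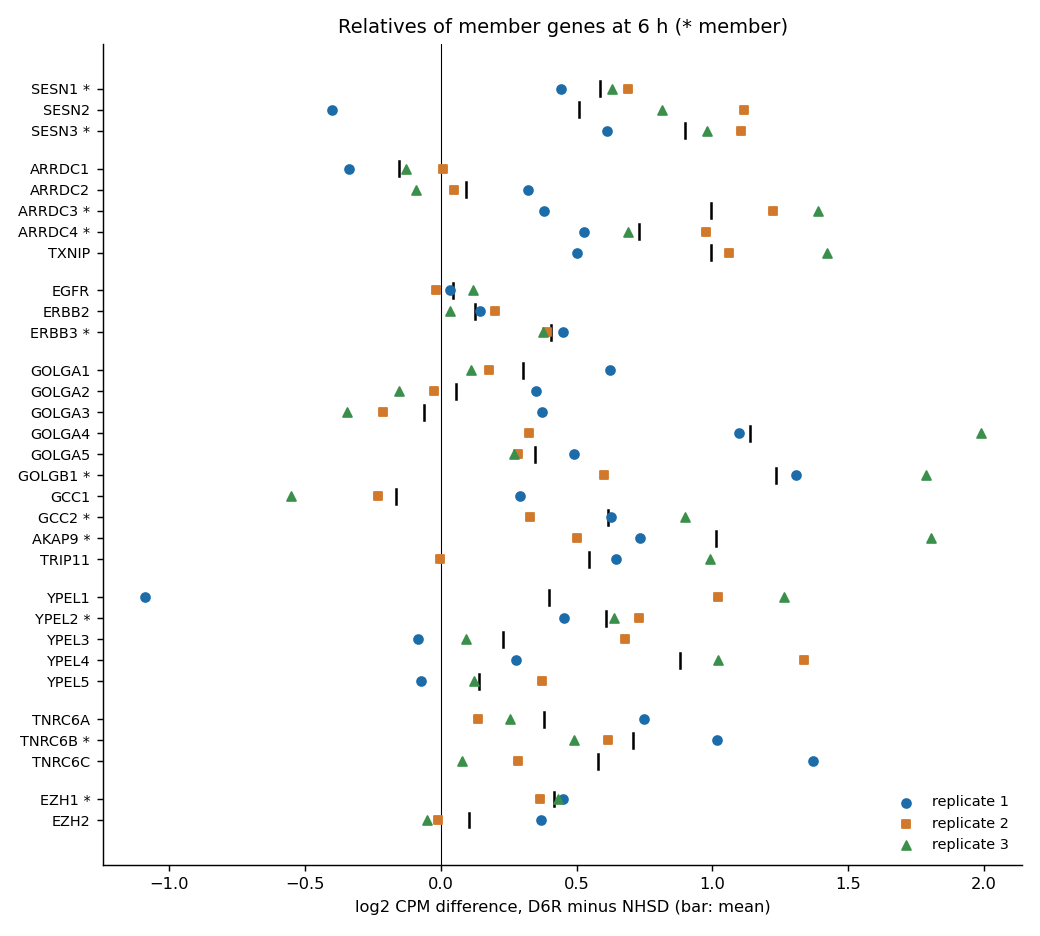
Log2 CPM difference D6R minus NHSD in each replicate (symbols) and its mean (bar) for relatives of the genes, with an asterisk on those that are among the 100. TXNIP and GOLGA4 have means of 0.99 and 1.14 and are not among the 100, while ARRDC1, ARRDC2, EGFR, ERBB2 and EZH2 have means between -0.15 and 0.13.

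The third group belongs to the secretory pathway, and it had the highest 2 h level of these role groups, with a median of 0.47 among the 2 h means of its 6 genes. RRBP1 encodes a ribosome-binding protein of the rough ER. It had 36.4, 46.7 and 47.0 CPM in NHSD, 101, 98.7 and 89.8 CPM in D2R and 86.9, 95.5 and 83.7 CPM in D6R. Its differences were 1.16 ± 0.28 at 2 h and 1.04 ± 0.21 at 6 h, and all libraries of both recovery groups were above all NHSD libraries. FICD, the ER enzyme that attaches AMP to the chaperone BiP, had 5.74, 7.49 and 8.18 CPM in NHSD, 6.28, 10.9 and 10.2 in D2R and 8.95, 15.2 and 11.8 in D6R, with differences of 0.33 and 0.73 ± 0.26. BiP itself (HSPA5) was left out by its name and had 6 h and 2 h differences of 0.79 and 1.13, and HSP90B1 had 1.02 and 1.01.

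GOLGB1 encodes giantin, the large coiled-coil tether of the Golgi. It had 20.2, 29.0 and 18.8 CPM in NHSD, 38.7, 31.5 and 66.5 in D2R and 50.0, 44.0 and 65.1 in D6R, with differences of 0.96 ± 0.85 and 1.23 ± 0.60. Both recovery groups were above all NHSD libraries and overlapped with each other, and replicate 2 had the smallest difference at both times. AKAP9, a scaffold of the centrosome and Golgi, had 19.7, 22.4 and 12.2 CPM in NHSD and 32.7, 31.8 and 42.6 CPM in D6R, a difference of 1.01 ± 0.70 that was largest in replicate 3. GCC2, a golgin of the trans-Golgi, differed by 0.62 ± 0.29, and RAB30, a Golgi GTPase, by 0.50 ± 0.03. Among golgins and related Golgi proteins outside the 100, GOLGA4 had 1.14 ± 0.83 and TRIP11 had 0.54 ± 0.51. GOLGA5 and GOLGA1 had 0.35 ± 0.12 and 0.30 ± 0.28, while GOLGA2, GOLGA3 and GCC1 had 0.06, -0.06 and -0.16. Over the 71 tested genes of a list for ER-to-Golgi and Golgi transport, 30 were above 0 at 6 h, the median was -0.04, and edgeR called none without the block (8 at an unadjusted p under 0.05) and 1 lower with it (RAB1B).

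Of 10 genes for chromatin proteins, MKI67 and BOD1L1 had the largest 6 h differences. BOD1L1, a protector of stalled replication forks, had 12.4, 24.8 and 25.8 CPM in NHSD, 26.8, 28.0 and 31.5 in D2R and 28.3, 39.2 and 41.8 in D6R, with 0.85 ± 0.29 at 6 h. MKI67 had 20.8, 60.9 and 40.9 CPM in NHSD, 75.4, 118 and 84.7 in D2R and 67.9, 105 and 57.3 in D6R. Its mean differences were 1.29 ± 0.50 at 2 h and 0.99 ± 0.64 at 6 h, which differed by less than their spread. In a list of 23 mitosis genes that includes MKI67, 4 were above 0 at 6 h, the median was -0.23, and the one call with the replicate block was PLK1, a mitotic kinase, which fell by 0.61 (adjusted p = 0.0173). CENPE and CENPF, large kinetochore proteins, had 0.98 and 0.76 and were not called.

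WDR5B, a relative of the histone methyltransferase subunit WDR5, had 7.23, 5.84 and 5.98 CPM in NHSD and 10.6, 9.83 and 10.9 CPM in D6R, a difference of 0.72 ± 0.16 without overlap. CHD2, a chromatin remodeller, had 27.2, 35.9 and 50.7 CPM in NHSD and 38.5, 53.1 and 73.6 in D6R (0.53 ± 0.03), with overlapping groups. JADE2, a scaffold of a histone acetyltransferase complex, had 32.3, 35.7 and 66.3 CPM in NHSD and 45.1, 61.2 and 103 in D6R (0.63 ± 0.15), also overlapping. EPC2, a subunit of the NuA4 acetyltransferase complex, was even, with 21.6, 19.0 and 19.1 CPM in NHSD and 27.5, 26.1 and 26.2 CPM in D6R, and its D6R libraries were above all 15 others. The remaining 4 are SPTY2D1, a histone chaperone, the histone methyltransferases EZH1 and KMT5C, and PHF21A, a subunit of a histone demethylase complex, with 6 h means of 0.45, 0.42, 0.53 and 0.54. EZH2, the relative of EZH1, had 0.10.

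Transcription factors were represented by 8 genes beside 9 named ZNF or ZSCAN, the large family of zinc finger proteins. SOX4, a factor of progenitor cells and epithelial plasticity, had 42.1, 44.0 and 91.7 CPM in NHSD, 72.7, 51.0 and 92.4 in D2R and 73.1, 83.0 and 134 in D6R, a 6 h difference of 0.75 ± 0.19. Replicate 3 of NHSD lay above replicates 1 and 2 of D6R. ARID5A, a DNA- and RNA-binding protein known for stabilising cytokine transcripts, had 4.20, 5.38 and 8.81 CPM in NHSD and 6.03, 8.64 and 14.4 in D6R (0.64 ± 0.10). HBP1, a repressor of cell cycle genes, had 0.35 at 2 h and 0.47 at 6 h. HOXA5, a homeobox factor of mammary epithelium, had 0.42 and 0.41. EYA1, a phosphatase and transcription cofactor, had 5.69, 7.82 and 6.47 CPM in NHSD, 6.32, 4.52 and 4.26 in D2R and 8.31, 10.2 and 9.40 in D6R. Its mean difference was -0.41 ± 0.50 at 2 h, with replicate 1 above and replicates 2 and 3 below their controls, and 0.49 ± 0.09 at 6 h. HMBOX1, THAP9 and CDK8, the kinase of the Mediator complex, had 6 h means from 0.38 to 0.46.

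The ZNF and ZSCAN names made up 9% of the 100 and 1.43% of the genes that passed the filters, a comparison noticed in these data and not tested. Their mean levels ran from 5.29 to 27.2 CPM. ZNF248 had 4.07, 4.00 and 4.98 CPM in NHSD and 5.88, 7.67 and 7.76 in D6R (0.70 ± 0.21), and ZNF606 had 7.49, 6.25 and 5.86 CPM and 10.5, 8.75 and 9.22 CPM (0.54 ± 0.10), both without overlap. ZSCAN29, ZNF740, ZNF774, ZNF692, ZNF286A, ZNF394 and ZNF287 had 6 h means from 0.39 to 0.63. At 2 h, 7 of the 9 had means above 0, and ZNF774 was the highest at 0.45.

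RNA-processing genes numbered 6. TNRC6B, the partner of Argonaute in silencing by microRNAs, had 11.7, 20.5 and 26.9 CPM in NHSD and 23.8, 31.4 and 37.9 in D6R (0.71 ± 0.28), with overlapping groups. Its relatives TNRC6A and TNRC6C had 0.38 ± 0.32 and 0.58 ± 0.69. YTHDC1, a nuclear reader of methylated adenosine in RNA, had 61.8, 65.0 and 59.6 CPM in NHSD, 67.7, 82.9 and 73.7 in D2R and 81.7, 87.4 and 88.0 in D6R, and both recovery groups were above all NHSD libraries. ZFC3H1, which brings transcripts to the nuclear exosome, TGS1, which modifies the cap of small nuclear RNAs, SUGP2, a splicing-factor relative, and UNKL had 0.65, 0.44, 0.43 and 0.64. UNKL had -0.09 at 2 h, and SUGP2 had 0.49.

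Among 8 genes for kinases, phosphatases, receptors and ligands, DUSP10 ranked highest. It encodes a phosphatase that switches off the stress kinase JNK, and MAP2K7, also among the 100, encodes a kinase that switches JNK on. DUSP10 had 6.49, 11.8 and 13.4 CPM in NHSD and 9.70, 17.2 and 21.7 in D6R (0.60 ± 0.08), and MAP2K7 had 15.4, 18.3 and 22.9 and 20.1, 25.3 and 31.4 CPM (0.43 ± 0.05), both with overlapping groups. In the list of 36 immediate early and growth factor feedback genes that holds DUSP10, 16 were above 0 at 6 h with a median of -0.05. With the replicate block 2 of that list were called higher (DUSP10 and AREG) and 2 lower (FOSL1 and KLF10), and without it none (5 at an unadjusted p under 0.05). Because this contrast chose DUSP10, its call is a description and tests nothing. PTPN6, a tyrosine phosphatase that damps receptor signals, had 14.3, 14.8 and 21.6 CPM in NHSD, 26.3, 35.4 and 45.9 in D2R and 28.7, 20.2 and 27.2 in D6R. Its mean differences were 1.08 ± 0.19 at 2 h and 0.60 ± 0.36 at 6 h. With the replicate block PTPN6 was the only 1 of the 100 called in D2R against NHSD (adjusted p = 0.0036, where 0.165% of all genes were called higher and 0.0594% lower). Without the block edgeR called none of the 100 (10 at an unadjusted p under 0.05, and 0.0792% of all genes called higher), and DESeq2 called PTPN6 (0.19% of all genes higher and 0.00592% lower). Of the 8557 genes that passed the filters, 191 had an unadjusted p under 0.05 in edgeR without the block. The NHSD libraries of this contrast were used in the choice.

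BMPR1A was lower than NHSD at 2 h and higher at 6 h in all 3 replicates. It had 20.5, 19.7 and 16.6 CPM in NHSD, 20.6, 19.9 and 22.2 in HSD, 19.6, 12.0 and 13.1 in D2R and 26.1, 24.7 and 23.1 in D6R. Its D6R libraries were above all 15 others, although the difference from NHSD was only 0.38 ± 0.08. STK38L, a kinase of the NDR family, and GRK5, which phosphorylates G protein-coupled receptors, were among the 5 most abundant, with means of 125 and 84.6 CPM over all libraries and 6 h differences of 0.48 ± 0.07 and 0.41 ± 0.10. EFNA1, a membrane-bound ligand of Eph receptors, and PTPN13_1 had 0.51 and 0.42. PTPN13_1 is also 1 of 2 rows with that gene's name, with 906 to 1321 counts per NHSD library against 1516 to 3035 for PTPN13.

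Regulators of small GTPases and the cytoskeleton were the largest group, with 12 genes. FILIP1L was the most abundant of the 100, with 96.8, 102 and 134 CPM in NHSD, 147, 131 and 202 in D2R and 176, 139 and 180.0 in D6R, and differences of 0.52 and 0.58 ± 0.24. MTUS1, a microtubule-associated protein, had 5.10, 5.90 and 8.53 CPM in NHSD, 7.19, 8.61 and 9.16 in D2R and 8.80, 9.69 and 12.3 in D6R (0.67 ± 0.13 at 6 h), with D6R above all NHSD libraries. DNMBP, an activator of the GTPase Cdc42, had 10.2, 15.7 and 24.6 CPM in NHSD and 14.6, 24.7 and 43.2 in D6R (0.66 ± 0.15). SH3PXD2B, a scaffold of podosomes, had 6.62, 9.63 and 25.3 CPM in NHSD and 9.49, 18.8 and 36.1 in D6R (0.66 ± 0.26). Both overlapped widely between groups, and at 2 h their means were -0.07 and -0.25. RND1, a small GTPase that loosens cell adhesion, had 7.89, 10.3 and 8.06 CPM in NHSD and 10.9, 19.9 and 15.3 in D6R, with no overlap. The other 7 (RAP1GAP2, SIPA1L2, JMY, PLD1, SMTNL2, BBS1 and ANKRD26) had 6 h means from 0.43 to 0.75, and the D6R libraries of ANKRD26 were above all 15 others.

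NTN4 encodes netrin-4, a laminin-related protein of basement membranes. It had 71.1, 57.5 and 77.1 CPM in NHSUD, 64.6, 80.8 and 64.2 in HSUD, 92.9, 92.8 and 97.9 in NHSD, 92.3, 116 and 86.5 in HSD, 133, 159 and 127 in D2R and 143, 142 and 137 in D6R. Both recovery groups were above every unheated library, and overlapped with each other. The other surface genes were TMPRSS4, a membrane serine protease, KCNJ15, a potassium channel, and TMEM206, a chloride channel, with 6 h means of 0.51, 0.45 and 0.43. Of 6 genes for enzymes, RDH10, which oxidises retinol, had 16.7, 15.3 and 16.0 CPM in NHSD, 24.9, 18.9 and 19.1 in D2R and 23.4, 24.6 and 22.3 in D6R, with both recovery groups above NHSD. DEGS2, which makes phytoceramide, had the largest difference of the enzymes at 0.80 ± 0.42. CROT of fatty acid transport, GFPT2 of the hexosamine pathway and TWNK, the mitochondrial DNA helicase, had 6 h means of 0.41, 0.44 and 0.47.

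SAMD9, an antiviral gene induced by interferon, had 30.4, 33.2 and 11.3 CPM in NHSUD, 78.7, 49.1 and 25.6 in NHSD, 88.2, 42.2 and 56.5 in D2R and 109, 97.9 and 56.3 in D6R, a 6 h difference of 0.87 ± 0.35 with overlapping groups. In a list of 27 tested interferon-stimulated genes, of which SAMD9 is not a member, 26 were above 0 at 6 h with a median of 0.42, and edgeR called none with or without the block (5 and 3 at an unadjusted p under 0.05). The list was not raised at 6 h alone. It had 24 above 0 in D2R against NHSD and 26 in HSUD against NHSUD, each with a median of 0.22 and none called. IRGQ, named for the immunity-related GTPases, had 0.64 ± 0.29. Of the 15 genes left without a role group, FAM133B ranked highest. It had 25.8, 24.9 and 21.5 CPM in NHSD, 27.5, 28.1 and 26.6 in HSD, 30.5, 28.6 and 32.0 in D2R and 38.4, 38.9 and 36.8 in D6R, a difference of 0.66 ± 0.10. MACO1 had 42.7, 40.8 and 43.0 CPM in NHSD, 50.3, 39.2 and 39.0 in D2R and 55.4, 56.0 and 57.3 in D6R (0.42 ± 0.04). The D6R libraries of both genes were above all 15 other libraries and differed little among themselves. FAM214A had 15.5, 18.3 and 20.7 CPM in NHSD and 21.9, 26.9 and 34.3 in D6R (0.59 ± 0.12). The other 12 had 6 h means from 0.37 to 0.66.

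In all, 6 genes had every D6R library above every other library of the series, namely FAM133B, ARRDC3, MACO1, ANKRD26, EPC2 and BMPR1A, where 0.491% of the genes that passed the filters did so. High D6R values chose the genes, so that count is fixed in part by the choice. ARRDC3, ANKRD26, EPC2 and BMPR1A belong to 4 different role groups, and the other two have none. Of the genes in 24 lists written for this cell type and treatment, GOLGB1, SESN1, DUSP10 and MKI67 were among the 100, 4% of the 100 against 6.75% of the genes that passed the filters. The list of 24 p53 targets and growth arrest genes that holds SESN1 had 18 above 0 at 6 h with a median of 0.23. With the replicate block 1 of them was called higher (CCNG2, a cyclin of resting cells) and 1 lower (PLK3, a stress kinase), and without it none (7 at an unadjusted p under 0.05).

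Heat in undifferentiated cells gave a further set of values, from libraries that the choice had used only for the floor on mean CPM. The choice had already kept only genes whose mean HSD minus NHSD lay within 0.3 of 0, so a count of 0 says nothing particular to the 100. For HSUD against NHSUD, edgeR called 0 of the 100 and 0 of the 8557 genes that passed the filters, while 0.119% of all genes tested were called higher and 0.0066% lower. An unadjusted p under 0.05 was found in 2 of the 100 and in 101 of the 8557 genes that passed the filters. The 2 were WDCP at 0.41 ± 0.16 log2 units (SE) and EPC2 with 0.26 ± 0.12. The smallest adjusted p of the 100 was 0.942. All HSUD libraries were above all NHSUD libraries in 3 of the 100 (WDCP, HMBOX1 and EPC2), against 2.07% of the genes that passed the filters. With the replicate block 0 were called (6 at an unadjusted p under 0.05, and 0.383% of all genes called higher and 0.251% lower), and DESeq2 called 0 (3 at an unadjusted p under 0.05, and 0.387% of all genes called higher and 0.137% lower). Of the 8557 genes the block called 0 higher and 2 lower, with 849 at an unadjusted p under 0.05. DESeq2 gave such a p to 826 genes in all. The median log2 fold change was -0.03, with 44 of 100 above 0, beside 0.02 and 56.3% for the genes that passed the filters. Scaling by library size alone gave -0.12 and 29 above 0. The replicate medians of HSUD minus NHSUD were -0.03, 0.11 and -0.16. For HSPA1A, an inducible heat shock gene, the mean of the same difference was 4.34 ± 0.48 (SD, n = 3).

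The level at 2 h was tested against NHSUD, the unheated libraries that the choice had used only for that floor. These groups differ by medium, heat, recovery and plate at once, so the contrast gives a level and no single effect. D2R shared plate III with D6R, and NHSUD shared plate I with NHSD. A plate difference that helped to choose the genes would recur here, so the contrast is not free of the choice, and this was not tested. NTN4 was the 1 gene of the 100 that edgeR called, at 1.03 ± 0.14 log2 units (SE) above NHSUD (adjusted p = 0.00558), where 0.0792% of all genes tested were called higher and 0% lower. NTN4 was higher in all 3 replicates, and its difference between the media without heat, NHSD minus NHSUD, was 0.47. The call was lost when only the 2 groups were fitted (adjusted p = 0.118), without replicate 2 of NHSUD (0.0725) and without replicate 2 of D2R (0.056).

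With the replicate block 7 of the 100 were called in that contrast, where 1.17% of all genes were called higher and 0.957% lower. NTN4, PTPN6 (0.88, adjusted p = 0.00913), MTUS1 (0.70), FILIP1L (0.67), ZNF774 (0.56) and HBP1 (0.36) were higher. EYA1 fell by 0.82 (adjusted p = 0.0292). DESeq2 called 4 of these, NTN4, ZNF774 and PTPN6 higher and EYA1 lower, where 0.301% of all genes were called higher and 0.0641% lower. The NHSD minus NHSUD means of the other called genes were 0.31 for MTUS1, 0.14 for FILIP1L, -0.45 for EYA1, 0.10 for ZNF774, 0.01 for HBP1 and -0.21 for PTPN6. Over the 100 the median of D2R against NHSUD was 0.12 with 65 above 0, beside -0.02 and 45.8% for the genes that passed the filters. The replicate medians were 0.38, -0.02 and 0.00, with replicate 1 apart from the other two. All D2R libraries were above all NHSUD libraries in 14 of the 100, against 4.55% of the genes that passed the filters.

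The 6 h level was also set against NHSUD, although the D6R libraries had been used in the choice. The median of D6R minus NHSUD was 0.48, all 100 means were above 0, and 94 genes were higher in all 3 replicates. Of the 8557 genes that passed the filters, 1724 were higher in all 3. NHSD minus NHSUD had a median of -0.07 over the 100.

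A second look at the 6 h difference repeated the choice on 2 replicates and measured the 100 genes so chosen in the replicate left out. With replicate 1 left out, 35 of the 100 were shared with the genes described here, 79 were above 0 in replicate 1, and their median there was 0.24, against 0.70 in the replicates that chose them. With replicate 2 left out, 57 were shared, 90 were above 0 and the median was 0.40 against 0.55. With replicate 3 left out, 47 were shared, 88 were above 0 and the median was 0.38 against 0.57. The filters were also applied again to the 2 replicates used, and 6907, 8611 and 8955 genes passed them. Of those genes, 50.4%, 46.2% and 44.6% were above 0 in the replicate left out. The differences of freshly chosen genes were above 0 for most and were smaller than in the replicates that chose them, by most in replicate 1. NHSD was on plate I and D6R on plate III, so a difference of plate or time in culture would recur in the replicate left out. The values are a description, partly of genes other than the 100, and test no effect of recovery.

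**Figure D5:**
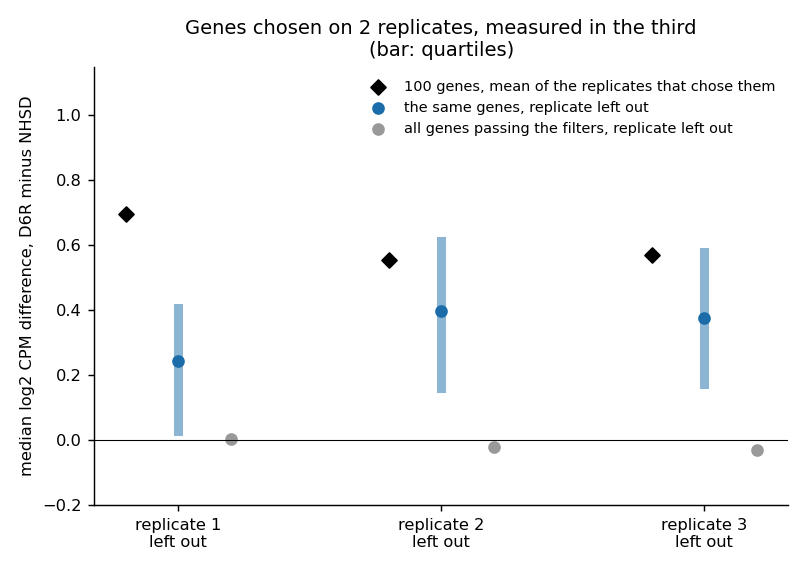
Median log2 CPM difference D6R minus NHSD of 100 genes chosen on 2 replicates, in those replicates (black diamonds) and in the replicate left out (blue points, bars for quartiles). Grey points are all genes that passed the filters in the 2 replicates used, measured in the replicate left out. The blue medians are 0.24, 0.40 and 0.38, each below its diamond and above the grey point.

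Facts of the whole series bear on these values in a few ways. Library totals ran from 40.89 to 61.16 M counts, and 72.7% of counts from 1 to 20 were even, so a read pair may have counted for 2. The epithelial label was matched by KRT8, KRT18 and KRT5 at means of 3887, 2220 and 12026 CPM, while ELF5, a luminal factor, was at 0.0587 CPM. Of 6 fibroblast markers only DCN (588 CPM) and PDGFRA (7.84 CPM) exceeded 1 CPM, and COL1A1 was at 0.101 CPM. The summed endothelial, immune and adipocyte markers never exceeded 4.23, 1.98 and 7.48 CPM in a library. The summed basal markers were 8905 to 13662 CPM in D6R and 11507 to 13341 CPM in NHSD, and their part in the results was not tested. In bulk RNA, a lower share of cells that express a gene and less of its RNA per cell cannot be told apart.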

How the data were processed

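The authors deposited 1 table of raw read counts per gene (30642 genes, 18 libraries), per the file header. Per the labels' protocols, fastp 0.23.2 trimmed the paired-end poly-A reads and STAR 2.7.9a placed them on ARS-UCD 1.3. The submitters' processing notes also name featureCounts 2.0.3, DESeq2 and limma, without their roles. The strand setting and the handling of multi-mapped reads are not given here. All columns were matched to samples by label (0 left over).

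In R 4.3.3, counts were filtered with edgeR 4.0.16 (filterByExpr, minimum count of 10, 15158 genes) and scaled by TMM. Each contrast was tested two-sided with edgeR's quasi-likelihood test over all 18 libraries with 1 mean per group, Benjamini-Hochberg adjusted over 15158 genes and called under 0.05. Standard errors (SE) came from the F statistic. CPM and log2 CPM (prior count of 2) were computed from the counts. With 3 libraries a group, an exact permutation test of 1 gene cannot go below p = 0.1. The steps were tested on simulated data, which held no replicate effects and planted changes larger than most of the 6 h differences. That run does not measure how well differences of the size seen here are found.

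The members and gene lists were chosen with earlier results of these data known. Genes named were the 25 with the highest minimum difference, those in a list, those called in a tested contrast, the 5 most abundant, the 3 on either side of the last place, and HSPA5, HSP90B1 and HSPA1A. All other names, the role groups and the relatives were chosen after the values were seen. Replicate numbers mark repeats of the whole experiment per the labels. Deviations from group means correlated in all 45 same-numbered pairs (0.20 to 0.82, median of other pairs -0.30), so the numbers paired the libraries, and block values stand beside results whose call they change. The common coefficient of variation was 0.245 without and 0.14 with the block. No 2 libraries were duplicates (smallest chi-square per gene 63.5). Per the labels, 2 of the wells were pooled per library. A RefSeq table of another assembly served for names only, and sequences were not analysed here.

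Alternatives were DESeq2 1.42.0, other scalings, filters and prior counts, the replicate block, the compared groups alone, other settings of the choice, and leaving out each library. TMM after the filter, and the block without each replicate, were added after seeing the data. The values of some genes are not reported here, although the counts include them.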

Additional observations from a re-analysis of the deposited data

How the results depend on the processing

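The choice of genes kept 54 of the 100 when ranked by the mean in place of the minimum, and between 35 and 57 when a replicate was left out. With other scalings, prior counts, CPM floors or heat windows, and with TMM after the filter (chosen after seeing the data), it kept 70 to 100. The replicate block, which pairs same-numbered libraries, raised the number of genes called from 19 to 96 for HSUD against NHSUD, from 12 to 322 for D2R against NHSUD, from 2 to 220 for D6R against NHSD and from 12 to 34 for D2R against NHSD. It gave 0 in place of 0 for D6R against D2R. Fitting the compared groups alone gave 9, 0, 0, 0 and 0 genes in these 5 contrasts, and DESeq2 gave 84, 57, 39, 33 and 1. The count of the 100 called in D2R against NHSUD went from 1 to 7 with the block, 0 with the compared groups alone and 4 with DESeq2. Leaving out 1 library, which leaves the replicate numbers unbalanced, gave 8 to 16 genes for HSUD against NHSUD, 0 to 26 for D2R against NHSUD, 2 to 9 for D6R against NHSD, 4 to 25 for D2R against NHSD and 0 to 7 for D6R against D2R. Of the 100 it called 0 to 1 in D2R against NHSUD and 0 in HSUD against NHSUD, and the medians over the 100 ran from -0.13 to 0.13, -0.02 to 0.25, 0.40 to 0.72, 0.069 to 0.37 and 0.23 to 0.50 in the order above. The highest median for HSUD against NHSUD came without replicate 3 of NHSUD, and the highest for D6R against NHSD and D2R against NHSD came without replicate 3 of NHSD. With the block, leaving out replicates 1, 2 and 3 (added after seeing the data) gave 73, 30 and 36 genes for HSUD against NHSUD, 511, 15 and 46 for D2R against NHSUD, and 7, 3 and 1 of the 100 in the latter. Library size alone changed the split of higher to lower calls for HSUD against NHSUD from 18 and 1 to 12 and 3. The sign was followed across alternatives only for WDCP and EPC2 in HSUD against NHSUD and for the 7 genes called with the block in D2R against NHSUD. No alternative that was run reversed it. Other called genes were not followed. Causes were not tested. How depth limits the values was not compared between levels, and 24 of the 100 averaged under 10 CPM.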
